A study of Mus musculus with 14 samples.

Results

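The 10 mouse genes described here mark fibroblast subtypes, mostly at the cell surface, or build hyaluronan. They are Fap, Mme, Pdpn, Thy1, S100a4, Ly6a, Ly6c1, Has1, Has2 and Eng. They were taken by name from 2 RNA-Seq data sets, and all 10 were listed both among the 16481 genes of mouse pancreatic stellate cells (PSCs) and among the 54532 genes of mouse livers. In PSCs treated with the PIEZO1 agonist Yoda1, Has2 fell to 0.70 of its DMSO level in the average of 3 preparations. Has1, Mme and Thy1 were lower and Fap was higher with Yoda1 in every preparation, without passing the same test. In livers of tumor-bearing mice, Mme was lower in both WT livers than in all 3 TRPV4-KO livers, as were 15.5% of all genes. It did not pass the test over all genes there (edgeR, adjusted p = 0.205). Has1, Has2, S100a4 and Ly6c1 gave at most 9 counts in any liver.

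Fibroblasts of the pancreas and liver are told apart by proteins on their surface. FAP is a serine protease of activated fibroblasts, and Mme encodes CD10 (neprilysin), a zinc peptidase that cuts small peptides outside the cell. PDPN and THY1 are membrane glycoproteins found on many stromal cells, LY6A (Sca-1) and LY6C1 are small lipid-anchored proteins of the Ly6 family, and endoglin, the product of Eng, is a co-receptor for ligands of the TGF-β family that is abundant on endothelial cells. S100A4 is a small calcium-binding protein also called fibroblast-specific protein, although immune cells make it too. Has1 and Has2 encode synthases in the plasma membrane that extrude hyaluronan, a long sugar polymer of the tumor stroma.

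The PSCs were isolated from mouse pancreas, cultured on Matrigel-coated plates, and given either Yoda1 at 25 μM or DMSO as the vehicle. Each treatment has 3 libraries, and libraries with the same replicate number come from 1 cell preparation. The sources used here disagree on the treatment time, which is given as 24 hours and as 72 hours. The livers came from mice killed 20 days after the injection of 100000 KPCY cells, murine pancreatic tumor cells, into the tail of the pancreas. WT mice (n = 2) carried a floxed Piezo1 gene on both alleles without Cre. TRPV4-KO mice (n = 3) lacked the ion channel TRPV4 in all of their own tissues, whereas the injected tumor cells kept it. GSK219 mice (n = 3) were WT mice given the TRPV4 antagonist GSK2193874 by daily gavage at 10 mg/kg, and no vehicle gavage of the WT mice is given in the sources used here. Mice were 8 to 12 weeks old and the labels give no sex.

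Liver libraries held 15567031 to 17395299 counts, and 27312894 to 39070539 reads had been counted on the listed genes of each PSC library. Trpv4 had 43 and 53 counts in WT livers, 15, 5 and 23 in TRPV4-KO livers and 20, 30 and 36 in GSK219 livers, so that reads on the targeted gene were fewer in all 3 TRPV4-KO livers than in the WT livers but not absent. PSC libraries held the stellate cell and fibroblast markers named for them except Gfap, which was not listed, and Col1a1 reached normalized values of 213908 to 463416. They also held the islet hormone genes Ins1 (2615 to 3736) and Ins2 (4627 to 6505) and the epithelial keratin genes Krt8 (22259 to 47725) and Krt18 (18986 to 46230), all of whose ranges overlapped between treatments. Libraries of preparation 3 stood apart from those of preparations 1 and 2 in both treatments (chi-square per degree of freedom 38.0 to 80.8, against 7.99 and 10.9 between preparations 1 and 2), and log2 differences of the members are given with and without it. In each liver group 1 liver carried Xist reads (13681 to 15754 counts), while the other livers had at most 7. Bulk libraries cannot tell fewer cells of a type from less RNA per cell.

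Both hyaluronan synthases were lower with Yoda1 in all 3 preparations of PSCs. The normalized value of Has2, a read count divided by a size factor of the library, was 8118, 8370 and 8303 with DMSO and 5587, 5768 and 6052 with Yoda1 in preparations 1, 2 and 3. Every Yoda1 library lay below every DMSO library, and the decrease was between 27.1% and 31.2% in each preparation. On the log2(value + 1) scale Has2 fell by 0.51 ± 0.057 (SE, n = 3 pairs; limma with the preparation as a block, adjusted p = 0.0482). Has2 was the only member of 10 called by this test at an adjusted p under 0.05, against 2.96% of all 15145 genes tested, and 5 members had an unadjusted p under 0.05, against 29.2% of all genes. The call of Has2 was lost in limma with a pseudocount of 0.1 (adjusted p = 0.0505), without the filter on low values (0.0724) and with any preparation left out (0.0952 to 0.236). Without the filter, and with each preparation left out, limma called 0 genes in all. The log2 difference of Has2 stayed between -0.54 and -0.50 over all alternatives. Has1 was 359, 363 and 249 with DMSO and 219, 245 and 213 with Yoda1. Its treatments did not overlap, and the log2 difference was -0.50 ± 0.12 (limma, adjusted p = 0.110). Has1 differed least in preparation 3, where it was lower by 14.4% and its DMSO value was already the lowest.

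The bases upstream of Has1 are shown because both synthases were lower with Yoda1 and Has1 is the synthase with a promoter entry in the RefSeq table used here (build GRCm38.p6). The window holds the 250 bases before the start at chr17:17855189-17855438 on the minus strand, of which the last 17 belong to an exon of another annotated Has1 transcript. Capitals mark letters of searched motifs.
Has1: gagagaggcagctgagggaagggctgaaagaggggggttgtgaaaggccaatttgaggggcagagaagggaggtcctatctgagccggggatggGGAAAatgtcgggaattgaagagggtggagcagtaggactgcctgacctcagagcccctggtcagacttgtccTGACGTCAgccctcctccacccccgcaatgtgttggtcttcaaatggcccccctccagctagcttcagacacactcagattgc
Both strands were searched for TGANTCA of the factor AP-1, for GGAATG of TEAD, for GGAAA of NFAT, and for the TATA box written as TATAAA, and the CRE letters TGACGTCA were added after the window had been seen. Has1 held 1 NFAT match beginning 156 bases before the start and 1 CRE match beginning 83 bases before it. Among 32851 mouse promoter windows of the same length, 55.6% held the NFAT letters and 1.55% the CRE letters, against 6.75% for AP-1, 12.6% for TEAD and 12.4% for TATA. These matches are descriptions of sequence and not sites of binding.

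The 2 membrane peptidases lay on opposite sides of their DMSO values with Yoda1. Fap was 165, 142 and 176 with DMSO and 311, 272 and 211 with Yoda1. All Yoda1 values were above all DMSO values, and Fap was higher by 88.6% and 90.6% in preparations 1 and 2 but by 20% in preparation 3. The log2 difference of Fap was 0.70 ± 0.17 (limma, adjusted p = 0.113). Mme was 377, 379 and 372 with DMSO, and 167, 203 and 349 with Yoda1. The treatments did not overlap, yet preparation 3 differed by 6.34% where preparations 1 and 2 were lower by 55.4% and 46.3%. The log2 difference of Mme was -0.72 ± 0.25 (limma, adjusted p = 0.174). C5ar2, which encodes GPR77, was not listed in the PSC table.

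**Figure D1:**
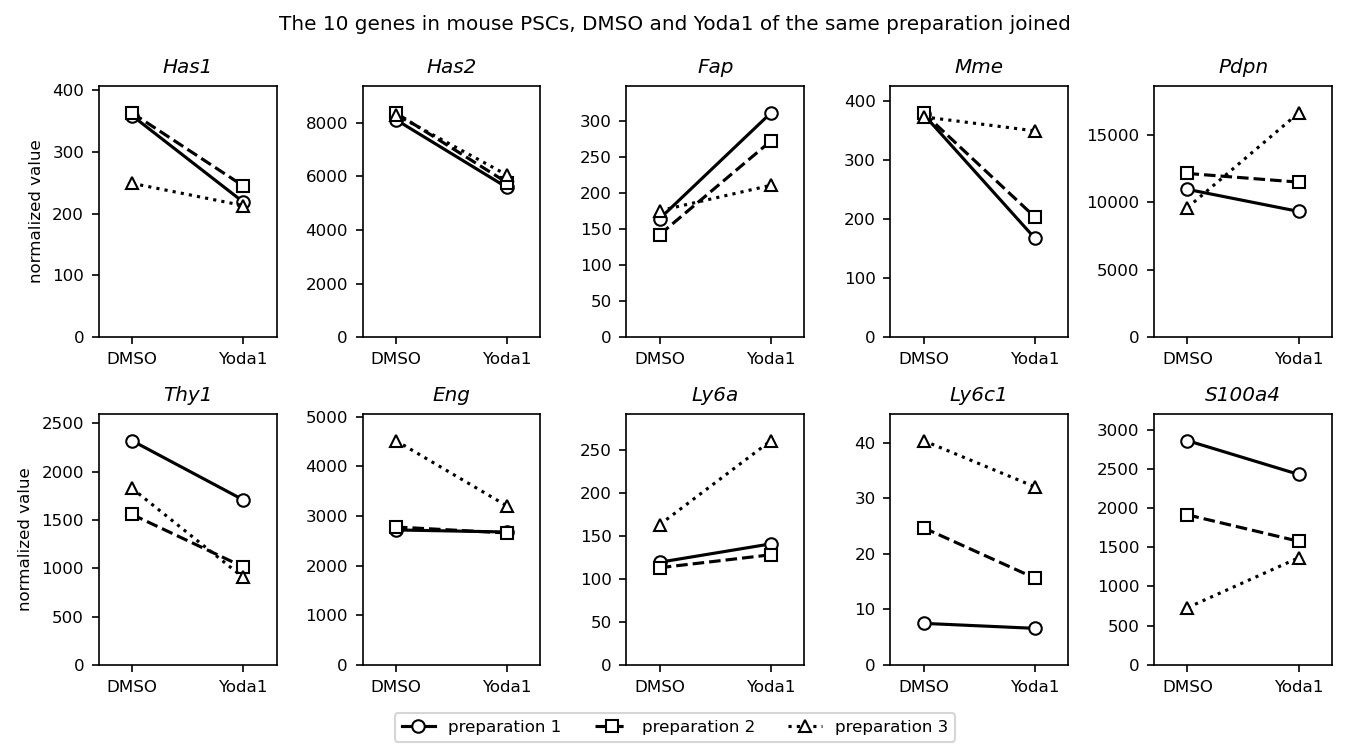
Normalized values (counts divided by a library size factor, linear axis from 0) of the 10 genes with DMSO and with Yoda1, with a line for each of the 3 preparations. Has1, Has2, Mme, Thy1, Eng and Ly6c1 slope down in all preparations and Fap and Ly6a slope up, while Pdpn and S100a4 are higher with Yoda1 in preparation 3 and lower in preparations 1 and 2.

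Pdpn and S100a4, the 2 members with the highest mean levels per length in PSCs, differed in direction between preparations. The mean levels of S100a4 and Has2 lay within their spread. Pdpn was 10966, 12147 and 9615 with DMSO and 9330, 11502 and 16639 with Yoda1. The Yoda1 value was lower by 14.9% and 5.31% in preparations 1 and 2 and higher by 73.0% in preparation 3, and the treatments overlapped (log2 difference 0.16 ± 0.25, limma, adjusted p = 0.699). S100a4 was 2858, 1913 and 729.8 with DMSO and 2428, 1576 and 1365 with Yoda1. It was lower by 15% and 17.6% in preparations 1 and 2 and higher by 87.0% in preparation 3 (log2 difference 0.13 ± 0.30, limma, adjusted p = 0.798). Without preparation 3 both differences turned negative, to -0.16 for Pdpn and -0.26 for S100a4. The summed epithelial and tumor markers had the same pattern, with 75548, 73646 and 104403 with DMSO and 58494, 64454 and 130977 with Yoda1, as had the 4 listed macrophage and monocyte markers (2523, 2718 and 2520, then 2316, 2345 and 3426). Krt8 and Krt18 made up most of the first sum and Lyz2 most of the second. On average 6 of 7 epithelial and tumor markers were lower with Yoda1, as were 2 of the 4 macrophage and monocyte markers. The 3 listed acinar markers were 261, 736 and 1215 with DMSO and 269, 821 and 2270 with Yoda1. The part of these lists in Pdpn and S100a4 was not tested. Of the stretches of 50 bases in S100a4 transcripts, 47.4% also occur in transcripts of the overlapping gene Gm42674 on the same strand, so the split of reads between them is uncertain.

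The upstream windows of these 2 genes are shown since they are the members that differed together between preparations. The Pdpn window lies at chr4:143299565-143299814 on the minus strand and the S100a4 window at chr3:90603520-90603769 on the plus strand.
Pdpn: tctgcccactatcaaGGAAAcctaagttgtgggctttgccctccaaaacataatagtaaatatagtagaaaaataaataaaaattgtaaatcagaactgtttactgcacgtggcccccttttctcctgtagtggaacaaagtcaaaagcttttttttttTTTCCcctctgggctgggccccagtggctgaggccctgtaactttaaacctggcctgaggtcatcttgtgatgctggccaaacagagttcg
S100a4: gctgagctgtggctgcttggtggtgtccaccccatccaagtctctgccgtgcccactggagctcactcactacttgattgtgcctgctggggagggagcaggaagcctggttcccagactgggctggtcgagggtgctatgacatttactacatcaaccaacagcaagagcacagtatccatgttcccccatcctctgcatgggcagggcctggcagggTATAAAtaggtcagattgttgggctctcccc
Pdpn held 2 NFAT matches, which begin 235 and 91 bases before the start, and S100a4 held 1 TATA match beginning 31 bases before it. No letters of the AP-1, TEAD or CRE motifs were found in either window. Bases just after the listed start were found in the gene's own transcripts for Has1 and Pdpn, but not for S100a4. The S100a4 window also lies within the gene Gm42674 on the same strand. Entries were also found for Eng, Mme and Ly6c1, while Fap, Thy1, Ly6a and Has2 had none.

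Thy1 was 2321, 1557 and 1827 with DMSO and 1708, 1015 and 906 with Yoda1. Thy1 was lower by 26.4%, 34.8% and 50.4% within the preparations, although the Yoda1 value of preparation 1 exceeded the DMSO value of preparation 2, so that the treatments overlapped without the pairing. Its log2 difference was -0.69 ± 0.14 (limma, adjusted p = 0.0868). Eng was 2717, 2776 and 4514 with DMSO and 2675, 2656 and 3199 with Yoda1. Eng was lower by 1.54% and 4.34% in preparations 1 and 2 and 29.1% in preparation 3 (log2 difference -0.19 ± 0.13, limma, adjusted p = 0.375).

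The normalized values of the 2 Ly6 genes lay on opposite sides of DMSO in all preparations. Ly6a was 120, 113 and 164 with DMSO and 141, 128 and 261 with Yoda1, higher in every preparation with overlapping treatments (log2 difference 0.36 ± 0.13, limma, adjusted p = 0.181). Ly6c1 was 7.48, 24.7 and 40.4 with DMSO and 6.58, 15.6 and 32.1 with Yoda1 (log2 difference -0.37 ± 0.12, limma, adjusted p = 0.152). Preparations differed more in Ly6c1 than treatments did. The reads behind the Ly6c1 values were 6, 22 and 40 with DMSO and 7, 19 and 40 with Yoda1. The lower values in preparations 1 and 3 thus came from library scaling of equal or more reads. Of the stretches of 50 bases in Ly6c1 transcripts 32.8% occur in other genes, mostly Ly6c2, and of those in Ly6a 19.0%, mostly in Ly6c1, so counts of these paralogs are uncertain.

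In 8 of 10 members the sign was the same in all 3 preparations, 6 lower and 2 higher, whereas 29.4% of all genes were lower and 27.2% were higher in all preparations. Among the 6 lower members, Ly6c1 had at most 40 reads in any library. Non-overlapping treatments were seen in Has1, Has2 and Mme (lower) and Fap (higher), against 15.1% and 14.9% of all genes. Without preparation 3, the log2 differences in limma were -0.54 for Has2, -0.64 for Has1, 0.92 for Fap, -1.03 for Mme, -0.53 for Thy1, 0.21 for Ly6a, -0.39 for Ly6c1 and -0.043 for Eng. Those of Ly6a and Eng were thus closer to 0 by more than 1.5 times, and none of the 8 passed the test. The count of members called depended on the variance model. limma with a variance prior that follows the mean level called 4 members (Has2 adjusted p = 0.00265, Thy1 0.0160, Fap 0.0314 and Has1 0.0366), beside 18.2% of all genes. edgeR on the recovered reads called the same 4 (Has2 0.00281, Thy1 0.0168, Fap 0.0297 and Has1 0.0374), beside 18.0% of all genes. DESeq2 on the recovered reads added Mme (adjusted p = 0.0137) to these 4, beside 14.1% of all genes. Without preparation 3, limma with that prior called Has2, Fap, Mme, Thy1, Has1, S100a4 and Pdpn, beside 31.5% of all genes. Without preparation 2 it called no member, with Has2 at an adjusted p of 0.0585, beside 2.1% of all genes.

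Genes of related pathways in PSCs were counted over lists written from general knowledge. Of 16 tested genes of hyaluronan synthesis, binding and turnover, Lyve1, a hyaluronan receptor of lymphatic vessels, rose (log2 difference 1.82 ± 0.087, limma, adjusted p = 0.0384) and Stab1, a scavenger receptor, fell by 0.66 ± 0.061 (limma, adjusted p = 0.0425). All 4 tested lymphatic endothelial markers, Lyve1 among them, were higher with Yoda1, and Lyve1 alone passed the test. The list summed to 688, 686 and 951 with DMSO and to 813, 854 and 1196 with Yoda1, and its part in Lyve1 was not tested. The median of the hyaluronan list was -0.07, beside -0.01 over all genes. Of 16 myofibroblast genes 5 fell and none rose, among them Col8a1 (-1.36), Tagln (-1.22), Postn (-0.86) and Col12a1 (-0.79, adjusted p of 0.0411 or less in limma), and the list median was -0.82. By limma 1.59% of all genes were called higher and 1.37% lower. Acta2, which encodes α-smooth muscle actin, was 133472, 120680 and 132329 with DMSO and 51408, 44748 and 27293 with Yoda1 (log2 difference -1.70 ± 0.23, limma, adjusted p = 0.0587). Of 14 inflammatory and universal fibroblast genes, Il11 (0.83) and Pdgfra (0.87) rose and Col14a1 fell by 0.86 (limma, adjusted p = 0.0384 each). Il6 was 843, 804 and 1082 with DMSO and 562, 786 and 1300 with Yoda1, with no common direction. edgeR on the recovered reads called 14 myofibroblast genes lower and 0 higher, and in the hyaluronan list as well as in the inflammatory list it called 3 higher and 5 lower, beside 9.14% of all genes higher and 8.83% lower. limma with the mean-dependent prior gave the same counts, beside 8.68% and 9.55%.

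Among 18 genes of the endoglin and TGF-β receptor pathway, Tgfb2 (-1.46), Tgfb3 (-1.09) and Mmp14 (-0.87), the protease that sheds endoglin, fell (limma, adjusted p = 0.0474 or less) and none rose. edgeR called 2 genes of this list higher and 5 lower, beside 9.14% and 8.83% of all genes. Peptidases related to Fap and Mme (9 tested), Ly6 family genes (6), S100 genes near S100a4 (8) and partners of podoplanin and Thy1 (10) held no call by limma. They held 3, 3, 2 and 3 genes at an unadjusted p under 0.05, beside 29.2% of all genes. edgeR on the recovered reads called 2, 1, 2 and 3 genes of these lists, beside 18.0% of all genes. The peptidases called by edgeR and by limma with the mean-dependent prior were Anpep and Dpp4, the closest relative of Fap, which had log2 differences of 0.86 ± 0.16 and 0.63 ± 0.14. The summed normalized values of the 9 stellate cell and fibroblast markers of the pancreas, of which 8 were listed, were 910318 to 1012280 with DMSO and 447137 to 557055 with Yoda1, and 7 of the 8 were lower with Yoda1. The sum of the 8 endothelial markers was 1859 to 2242 with DMSO and 1452 to 1640 with Yoda1, but only Kdr was lower (log2 difference -1.07, limma, adjusted p = 0.0418) and the other 7 were higher without passing the test. Of the 6 mesothelial markers, which summed to 8855 to 16398 and 12786 to 18010, Msln and Upk1b were higher and 4 were lower, and none passed the test. The part of such differences in the values of the 10 genes was not tested.

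Levels between genes were compared per length, as RPKM, in which reads are scaled to the gene length and to the library total. In livers a normalized library size took the place of the total. With DMSO the order was Pdpn 175 ± 23.1 (SD, n = 3), S100a4 91.9 ± 54.2, Has2 56.8 ± 1.26, Eng 23.9 ± 6.84, Thy1 18.5 ± 3.83, Ly6a 3.19 ± 0.597, Has1 2.09 ± 0.450, Mme 0.949 ± 0.0253, Fap 0.827 ± 0.0752 and Ly6c1 0.417 ± 0.278. S100a4 and Has2, and Eng and Thy1, were neighbours whose means lay within their spread. Has2 was thus above Has1 per length. With Yoda1 the order was kept except that Fap, at 1.47 ± 0.266, came above Mme, at 0.657 ± 0.271. In WT livers Eng led with 32.0 ± 6.17 (SD, n = 2), before Ly6a at 14.0 ± 5.84, Mme at 1.76 ± 0.769 and Thy1 at 1.31 ± 0.948, of which the last 2 lay within their spread. In TRPV4-KO livers Mme reached 5.15 ± 0.889 and Thy1 0.414 ± 0.174.

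**Figure D2:**
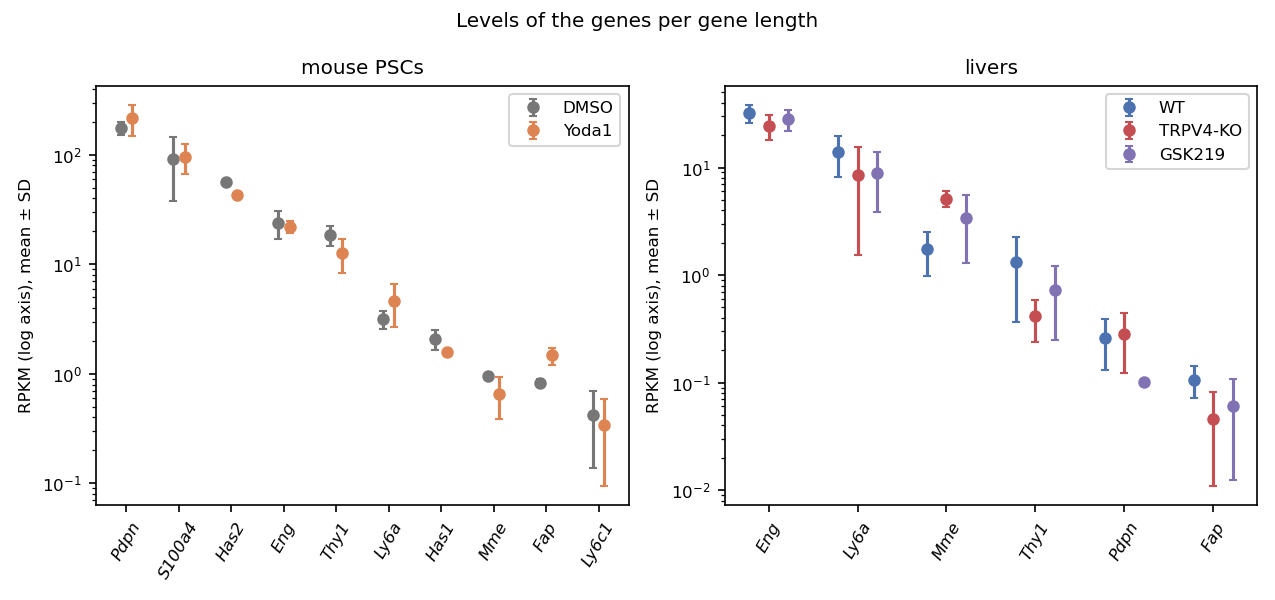
Mean RPKM with SD on a log axis, for the 10 genes in PSCs with DMSO and Yoda1 (left, n = 3 each) and for the 6 genes tested in livers of WT (n = 2), TRPV4-KO and GSK219 mice (right, n = 3 each). Pdpn, S100a4 and Has2 lead in PSCs, while Eng and Ly6a lead in livers where Fap is the lowest in WT mice.

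Of the 10 genes 6 passed the filter on low counts in livers. Has2 gave 1 count in 1 TRPV4-KO liver and 0 in the other livers. S100a4 gave 0 and 1 counts in WT, 2, 0 and 1 in TRPV4-KO and 0 in all GSK219 livers. Has1 gave 0 and 7 counts in WT, 0 in all TRPV4-KO livers, and 3, 0 and 5 in GSK219 livers. Ly6c1 gave 6 and 6 counts in WT, 4, 1 and 3 in TRPV4-KO and 5, 3 and 9 in GSK219 livers. A count of 0 allows up to 3 counts, or 0.174 to 0.194 CPM (read counts scaled to a normalized library size). These 4 genes did not reach the filter on low counts, so no fold change or test is given for them. Such limits describe counting error alone.

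Mme gave the clearest separation of WT and TRPV4-KO livers. Its counts were 429 and 240 in WT, 1123, 861 and 889 in TRPV4-KO and 490, 337 and 1117 in GSK219 livers, or 26.5 and 14.0, then 71.0, 55.8 and 51.5, then 30.8, 20.4 and 66.8 CPM. All TRPV4-KO livers lay above both WT livers, and GSK219 livers overlapped with both groups. The log2 difference of WT over TRPV4-KO was -1.55 ± 0.52 (edgeR quasi-likelihood test, unadjusted p = 0.0185, adjusted p = 0.205), and that of WT over GSK219 was -0.96 ± 0.51 (edgeR, adjusted p = 0.693). DESeq2 called the first of these (adjusted p = 0.0161, where 5.24% of all genes were called). Over the alternatives for WT against TRPV4-KO the difference stayed between -2.07 and -1.15. For WT against GSK219 the difference of Mme ran from -1.50 to -0.34. Liver libraries mix hepatocytes with stromal and immune cells, and the cell that holds the Mme reads was not determined.

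Thy1 and Fap were higher in WT livers than in TRPV4-KO livers without overlap. Thy1 counts were 96 and 33 in WT, 23, 10 and 28 in TRPV4-KO and 23, 21 and 64 in GSK219 livers. The log2 difference of WT over TRPV4-KO was 1.65 ± 0.65 (edgeR, unadjusted p = 0.0332, adjusted p = 0.250), and it ran from 0.64 without WT replicate 1 to 2.26 without WT replicate 2. Fap counts were 12 and 8 in WT, 1, 4 and 8 in TRPV4-KO and 3, 3 and 11 in GSK219 livers. Its lowest WT value, 0.466 CPM, and its highest TRPV4-KO value, 0.463 CPM, were 8 counts each, so the separation is within counting error (log2 difference 1.16 ± 0.81, edgeR, adjusted p = 0.514). Fap passed the filter on low counts through WT and GSK219 livers alone, as TRPV4-KO livers had at most 8 counts.

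Pdpn gave 5 and 11 counts in WT, 12, 3 and 10 in TRPV4-KO and exactly 3 in each GSK219 liver. It passed the filter on low counts only through WT and TRPV4-KO livers, and 1 TRPV4-KO liver had the same 3 counts as the GSK219 livers, so its separation from them is no support for a difference. Neither difference from GSK219 passed the test over all genes (edgeR, adjusted p = 0.680 and 0.822), while WT and TRPV4-KO overlapped (adjusted p = 0.953). Eng counts were 2379 and 1919 in WT, 1374, 1259 and 2226 in TRPV4-KO and 1533, 1704 and 2393 in GSK219 livers. Ly6a counts were 353 and 204, then 92, 78 and 348, then 93, 147 and 295. For both genes the 3 groups overlapped, and 1 liver of each group was well above the others of its group. The log2 differences of WT over TRPV4-KO were 0.39 ± 0.25 for Eng and 0.70 ± 0.69 for Ly6a (edgeR, adjusted p = 0.470 and 0.661). Over the alternatives they ran from 0.19 to 0.62 for Eng and from 0.22 to 1.63 for Ly6a. Eng overlaps the gene Fpgs on the other strand, which had up to 3779 counts in a liver.

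**Figure D3:**
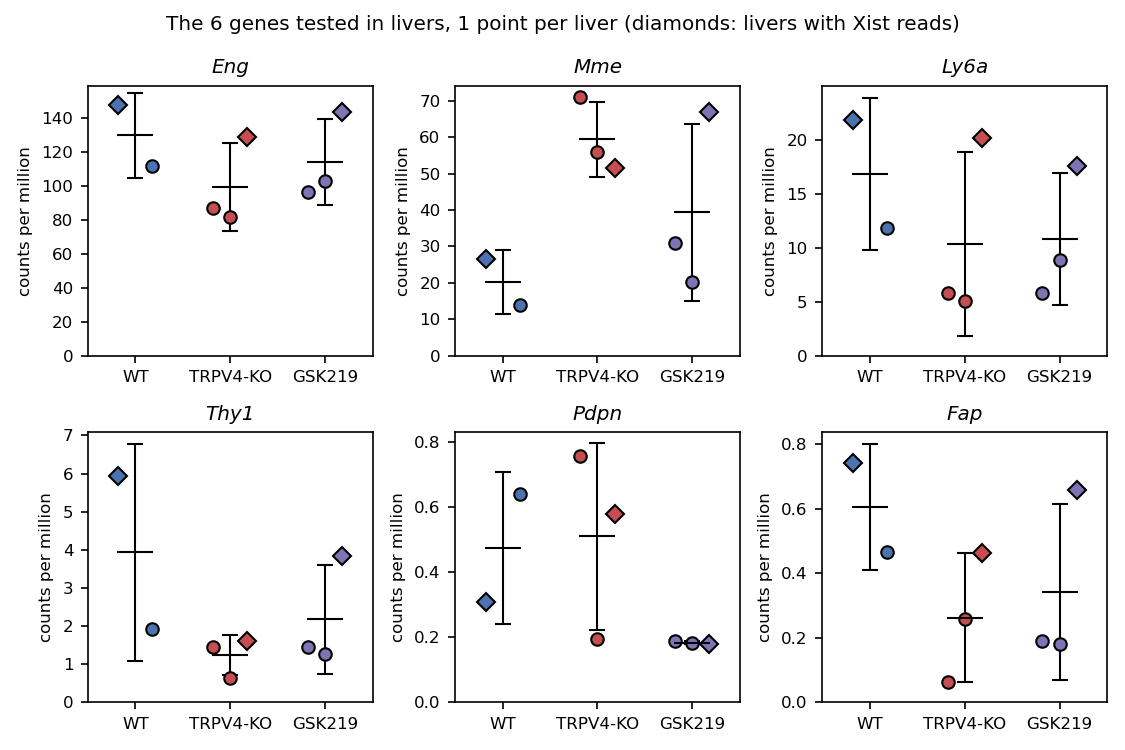
CPM of the 6 tested genes in each liver, with group means and SD as bars (WT n = 2, TRPV4-KO and GSK219 n = 3). Diamonds are the 3 livers with Xist reads, which are the highest of their group for Eng, Ly6a, Thy1 and Fap, while Mme separates WT from TRPV4-KO.

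No member was called by edgeR in any of the 3 liver comparisons. At an unadjusted p under 0.05 there were 2 members in WT against TRPV4-KO (Mme and Thy1), and 0 in both others. Of all 15118 genes 0.291% were called in WT against TRPV4-KO, 0.0% in WT against GSK219 (17.1% and 8.22% at an unadjusted p under 0.05) and 0.106% in TRPV4-KO against GSK219 (6.12% at an unadjusted p under 0.05). DESeq2 called 1 member in the first comparison and 0 in the others, beside 0.771% and 0.625% of all genes in those. Non-overlapping groups were found for Thy1 and Fap (higher in WT) and Mme (lower in WT) against TRPV4-KO, beside 17.7% and 15.5% of all genes, with Fap separated only by library scaling of equal counts. The comparisons of WT with TRPV4-KO and with GSK219 share the WT livers and are not independent. In TRPV4-KO against GSK219 the log2 differences of the members were between -0.81 ± 0.61 (Thy1) and 1.45 ± 0.64 (Pdpn). That of Thy1 ran from -1.08 to -0.12 over the alternatives, and that of Pdpn rests on 3 counts in each GSK219 liver.

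The livers with Xist reads were the highest of their group for Fap, Thy1, Ly6a and Eng in all 3 groups, 4 of 6 tested members, beside 16.2% of all genes. Ly6a was 21.8, 20.1 and 17.6 CPM in the livers with Xist reads of WT, TRPV4-KO and GSK219, and between 5.05 and 11.9 CPM in the other livers. Eng was 129 to 147 CPM in these livers and 81.6 to 112 CPM in the others. Within livers without Xist reads, log2 ratios of WT over TRPV4-KO were 1.13 for Ly6a, 0.41 for Eng, 0.87 for Thy1 and -2.18 for Mme. Within the livers with them, 1 for each group, they were 0.12, 0.19, 1.87 and -0.96. The sign was thus the same in both classes for these 4 genes, whereas Pdpn changed sign (0.43 without and -0.90 with Xist reads).

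**Figure D4:**
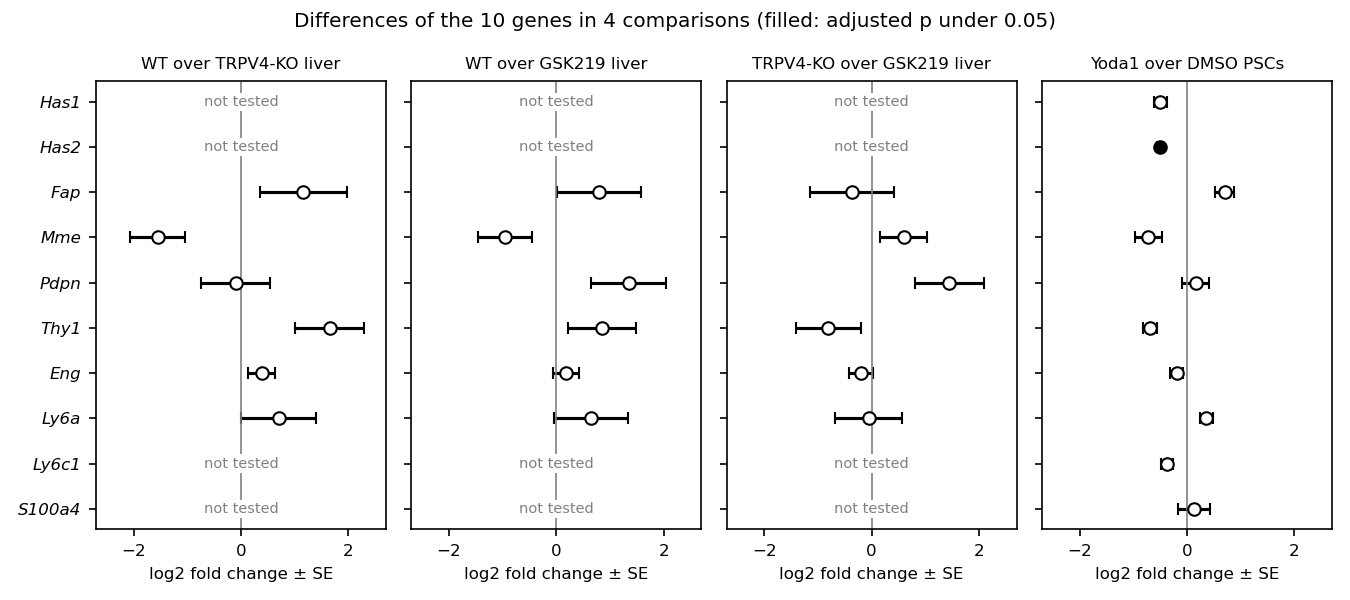
Log2 fold changes with SE of the 10 genes in the 3 liver comparisons (edgeR) and in PSCs (limma with the preparation as a block). The filled point is Has2 in PSCs, the only call at an adjusted p under 0.05, and Has1, Has2, Ly6c1 and S100a4 were not tested in livers.

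Related genes in livers gave no call by edgeR in WT against TRPV4-KO in any of the 8 lists, of 6 to 20 tested genes. Each list held 3 to 8 genes at an unadjusted p under 0.05, beside 17.1% of all genes. DESeq2 called 0 to 2 genes of each, beside 5.24% of all genes. The largest count, 8 of 12, was that of inflammatory and universal fibroblast genes, where Cxcl1, a neutrophil-attracting chemokine, was 93.8 ± 22.5 CPM in WT (SD, n = 2) and 28.1 ± 10.7 CPM in TRPV4-KO livers (n = 3; edgeR, adjusted p = 0.0766). Its list median was 0.72, beside -0.01 over all genes. In the hyaluronan list the smallest p was that of Ugp2, which makes UDP-glucose, at 145 ± 21.4 CPM in WT and 253 ± 14.5 CPM in TRPV4-KO livers (edgeR, adjusted p = 0.0693). Vcan, which binds hyaluronan, was 1.97 ± 0.426 CPM in WT and 0.452 ± 0.123 CPM in TRPV4-KO livers (edgeR, adjusted p = 0.102). Acvrl1, the type I receptor that works with endoglin, was 11.7 ± 0.409 and 5.74 ± 1.73 CPM (edgeR, adjusted p = 0.159). C5ar2 counts were 61 and 46 in WT, 78, 60 and 126 in TRPV4-KO and 21, 28 and 99 in GSK219 livers, with WT below TRPV4-KO in CPM (log2 difference -0.74 ± 0.62, edgeR, adjusted p = 0.595).

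Markers of several cell types moved with the liver groups. Summed CPM of 9 hepatic stellate cell and fibroblast markers were 423 to 600 in WT, 150 to 348 in TRPV4-KO and 218 to 356 in GSK219 livers. Those of 8 endothelial markers were 285 to 326, 184 to 280 and 214 to 283, and those of 7 macrophage and monocyte markers 1060 to 1222, 312 to 662 and 324 to 783. The 9 neutrophil markers summed to 62.6 to 75.1 in WT, 1.20 to 7.01 in TRPV4-KO and 2.52 to 6.16 in GSK219 livers. In each of these 4 lists both WT livers were above every TRPV4-KO and GSK219 liver. The same held for epithelial and tumor markers (694 to 718, 448 to 686 and 516 to 650), a sum mostly of Krt8 and Krt18, which hepatocytes also express. In that list Krt19 (-0.44) and Krt7 (-0.08) were at log2 differences below 0 against TRPV4-KO. Sox9 (1.59), Cdh1 (0.39) and Epcam (0.34) were above 0 without passing the test. Against TRPV4-KO, the log2 difference was above 0 for 9 of 9, 7 of 8, 7 of 7, 9 of 9 and 5 of 7 markers of these lists in turn. The sum of the 5 hepatocyte markers was lower in WT (47790 to 61264) than in TRPV4-KO (72127 to 92086) and GSK219 livers (70935 to 80704). Much of that sum was Alb (31636 to 44375 CPM in WT and 54089 to 74029 CPM in TRPV4-KO livers; edgeR, adjusted p = 0.151), whereas Apoa1 was at a log2 difference of 0.24 and the other 3 were between -0.32 and -0.12. The part of these lists in the values of Thy1, Fap, Ly6a, Eng and Mme was not tested.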

How the data were processed

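Mouse RNA-Seq of 8 livers and 6 PSC libraries was used. For the livers, the authors deposited unnormalized counts of reads per gene with coordinates that match GRCm38, and 7 further count columns that match no described sample were not used here. The PSC table deposited by the authors holds a signal that is a normalized count: dividing by the smallest step of each library gave whole reads, within 0.01, for all 98886 values (100%). Their own fold changes, p-values and adjusted p-values were not used. The submitters' processing notes name Trim Galore and HISAT2 2.0.5, and the counting tool is not given in the sources used here. Whether reads were counted by strand is not known.

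Samples were grouped by their labels. Liver counts were tested in R 4.3.3 with edgeR 4.0.16 (TMM, filter with a minimum count of 10, robust quasi-likelihood fit of all 8 livers, 15118 genes). Its biological coefficient of variation was 28.3%. Libraries of the same PSC preparation, identified by the same number in the labels, deviated together (correlations of 0.43, 0.26 and 0.53 across genes), and the preparation was a block in limma 3.58.1 on log2(value + 1) for 15145 genes that reached 10 in 3 or more libraries. P-values were adjusted by Benjamini-Hochberg over all genes tested, and the threshold was 0.05. DESeq2 1.42.0, edgeR on the recovered reads, limma with a mean-dependent prior, other filters and pseudocounts, and fits without single libraries were alternatives, of which the mean-dependent prior and a test of Xist reads were chosen after seeing the data. The steps were also run on simulated data, in which every preparation had the same spread. Preparation 3 of the PSCs stood apart, and the simulation does not cover that. RPKM used the gene lengths of the liver table for both data sets. The members, the gene lists and the rule of naming at most 4 genes of smallest p per list and comparison were chosen with earlier results of these data known. P-values describe the spread between these samples.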

Additional observations from a re-analysis of the deposited data

How the results depend on the processing

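With 2 WT livers and single livers that stand apart, liver counts of calls depended strongly on the model. Genes called in WT against TRPV4-KO numbered 44 in the analysis reported, 782 by DESeq2 (with 1 member, Mme), 198 without the filter on low counts, 20 with only the 2 groups compared, 535 with a term for Xist reads, and 3 to 1291 with a liver left out, the highest without TRPV4-KO replicate 3. In WT against GSK219 there were 0, and 111 by DESeq2, 9 without the filter, 2 with only the 2 groups compared, 4 with the term for Xist reads and 0 to 2 with a liver left out. In TRPV4-KO against GSK219 there were 16, and 113 by DESeq2, 44 without the filter, 45 with the term for Xist reads and 8 to 141 with a liver left out. The cause was not tested.

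The replicate number does not pair livers, whose correlations with the same number ran from -0.48 to 0.58. A replicate block called 531 genes in WT against TRPV4-KO and 9 in WT against GSK219, with no member among them, and turned the log2 difference of Pdpn in WT against TRPV4-KO to 0.018. Member directions reversed when a liver was left out in these cases: Pdpn in WT against TRPV4-KO (-0.70 to 0.34), Thy1 (-0.19 to 1.53) and Eng (-0.036 to 0.38) in WT against GSK219, both without WT replicate 1, and Fap (-1.07 to 0.079) and Ly6a (-0.99 to 0.49) in TRPV4-KO against GSK219.

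In PSCs 449 genes and 1 member were called. DESeq2 on the recovered reads called 2049 genes and 5 members, edgeR 2735 and 4, and limma with the mean-dependent prior 2760 and 4. That prior without replicate 1 called 1813 genes and 2 members, without replicate 2 320 and 0, and without replicate 3 4771 and 7. The analysis reported called 0 genes with any preparation left out, 0 without the filter on low values, 971 with a pseudocount of 10, and 185 genes and 0 members when a log2 fold change over 1 was required. With a pseudocount of 0.1 there were 0 members called (Has2 adjusted p = 0.0505, limma). Without the replicate block 313 genes and 1 member, Has2, were called (adjusted p = 0.0353, limma). With a preparation left out, Pdpn ranged from -0.16 to 0.36 and S100a4 from -0.26 to 0.33 in both limma versions, the lowest without replicate 3. Has1 and Has2 kept their direction in all alternatives, as did Fap, Mme, Thy1, Ly6a, Ly6c1 and Eng.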

Other observations

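A term for livers with Xist reads, 1 in each group, was tested beside the groups in edgeR after these reads had been seen. Of the 6 tested members, Ly6a was higher in these livers by a log2 difference of 1.38 ± 0.20 (edgeR, adjusted p = 0.00991) and Eng by 0.52 ± 0.082 (edgeR, adjusted p = 0.0138), higher in 3 of 3 groups. Both passed the threshold, beside 1.99% of all genes called higher. Thy1 (1.26 ± 0.31, edgeR, adjusted p = 0.0637), Fap (1.32 ± 0.49, adjusted p = 0.167) and Mme (0.69 ± 0.33, adjusted p = 0.268) were higher without passing it, and Pdpn was at -0.20 ± 0.57. The 3 livers with Xist reads were also the highest of their group in the summed markers of hepatic stellate cells and fibroblasts, endothelial cells, macrophages and monocytes (1222, 662 and 783 CPM in WT, TRPV4-KO and GSK219) and T cells (6.31, 4.69 and 4.60 CPM). Their part in Ly6a and Eng was not tested.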
